A study of Mus musculus and Rattus norvegicus with 30 samples.

Results

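The genes described here are 8 channels and channel partners tied to touch and acid sensing in sensory neurons: Piezo1, Piezo2, Asic1, Asic2, Asic3, Stoml3, Tmem150c and Tmem63b. They were selected by gene symbol. Each symbol was found once in each count table, so they make up 8 of 54315 mouse features and 8 of 39281 rat features. The tissue sequenced was the dorsal root ganglion (DRG), which holds the cell bodies of sensory neurons with their glia, vessels and immune cells. The mouse data came from the L3 and L4 ganglia of adult BALB/c and B10.D2 mice of both sexes, 28 days after spared nerve injury (SNI) or a sham operation. SNI cuts the common peroneal and sural branches of the sciatic nerve and spares the tibial branch, so these ganglia hold injured and uninjured neurons side by side, and in the sham operation the nerve was exposed and left intact. The groups were 6 BALB/c sham (3 male, 3 female), 4 BALB/c SNI (2 male, 2 female), 5 B10.D2 sham (3 male, 2 female) and 5 B10.D2 SNI (2 male, 3 female) libraries, each from 1 mouse. The rat data came from the L5 ganglion of male Wistar rats 21 days after L5 spinal nerve transection (SNT) or sham, with 4 libraries a group and 3 pooled rats per library. B10.D2 sham mouse 59 and BALB/c SNI mouse 66 were not analysed here.

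Library totals ran from 29989963 to 41881331 counts in mouse and from 11954612 to 17887909 in rat. Levels are CPM (counts-per-million units, with TMM scaling of the library totals), and levels of different genes are compared only as RPKM, which is CPM per kilobase of exon. The injury marker Atf3 had a mean of 13.5 CPM in sham and 124 CPM in SNI libraries of BALB/c, and of 13.5 and 81.8 CPM in B10.D2. The neuropeptide Gal had a mean of 135 CPM in rat sham and 513 CPM in rat SNT libraries. BALB/c sham 50 and BALB/c SNI 49 held more muscle marker RNA than the other mouse libraries (416 and 158 CPM over 3 markers, against at most 25.6). Rat sham 4 and SNT 1 lay between the groups on the first principal component, at -6.32 and 0.82, where the other sham libraries lay from -48.1 to -35.0 and the other SNT libraries from 30.05 to 49.33.

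Piezo1 and Piezo2 are large channels that membrane tension opens directly. Piezo2 is the main touch and proprioception channel of sensory neurons, while Piezo1 is best known from blood vessels, red cells and other non-neuronal cells. The acid-sensing ion channels are trimers that pass sodium when protons bind, and Asic1, Asic2 and Asic3 encode subunits that can mix in 1 channel. Stoml3, a stomatin-like membrane protein, raises the sensitivity of mechanically gated channels. Tmem150c, also called tentonin 3, has been linked to slowly adapting mechanical currents, and Tmem63b belongs to the OSCA/TMEM63 family of channels opened by stretch.

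Piezo1 and Asic1 were the members whose level differed between conditions, and the 250 bases before the most upstream RefSeq start of each are shown for that reason (GRCm38.p6). No annotated exon lies in either window, and the lines read 5′ to 3′ on the gene's strand, with capitals marking a GC box and a TATA box. The Piezo1 window is chr8:122551330-122551579 on the minus strand and the Asic1 window is chr15:99669947-99670196 on the plus strand.
Piezo1: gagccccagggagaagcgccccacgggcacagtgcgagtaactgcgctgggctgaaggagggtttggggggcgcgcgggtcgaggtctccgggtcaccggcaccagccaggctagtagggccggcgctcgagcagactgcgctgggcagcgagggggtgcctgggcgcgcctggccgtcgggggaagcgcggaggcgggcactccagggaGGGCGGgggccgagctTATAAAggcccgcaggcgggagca
Asic1: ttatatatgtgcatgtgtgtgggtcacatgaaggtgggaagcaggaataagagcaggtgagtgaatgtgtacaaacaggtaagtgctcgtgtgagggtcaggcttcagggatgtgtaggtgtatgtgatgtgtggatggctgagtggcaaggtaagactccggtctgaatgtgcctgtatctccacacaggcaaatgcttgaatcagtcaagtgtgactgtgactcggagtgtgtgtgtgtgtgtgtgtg
The Piezo1 window was 74% G and C and the Asic1 window 48.8%, against a median of 52.4% over 32817 gene windows of the same length. The motifs searched, on both strands, were the GC box GGGCGG, the AP-1 site TGACTCA, the cyclic AMP element TGACGTCA and the TATA box TATAAA. The marked matches do not overlap. The Piezo1 window held 1 GC box, 40 bases before the start, and 1 TATA box, 24 bases before it, and the Asic1 window held none of the 4. Over all windows, 32.7% held the GC box, 4.46% the AP-1 site, 1.55% the cyclic AMP element and 12.4% the TATA box. Asic1 has 5 RefSeq starts and Piezo1 has 4, so other start sites are not covered by these windows.

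In sham ganglia Piezo2 was the most abundant member by far and Stoml3 was close to absent. In BALB/c sham libraries Piezo2 stood at 44.2 ± 3.10 RPKM (SD, n = 6), followed by Tmem63b at 21.2 ± 1.68 and Asic3 at 15.9 ± 1.55. Asic1 at 11.6 ± 1.10, Asic2 at 11.4 ± 1.24 and Tmem150c at 9.57 ± 0.74 RPKM formed a run of neighbours. Piezo1 was lower, at 1.96 ± 0.20 RPKM, and Stoml3 was at 0.041 ± 0.030. The library values of Asic3 and Asic1, of Asic1 and Asic2, and of Asic2 and Tmem150c overlapped, so the order of these neighbours is within their spread, whereas the other neighbours did not overlap. In the other mouse groups the mean of Asic1 came after those of Asic2 and Tmem150c, at 7.70 RPKM in BALB/c SNI, 9.91 in B10.D2 sham and 6.19 in B10.D2 SNI. Asic1 overlapped Tmem150c in BALB/c SNI, and both Tmem150c and Asic2 in B10.D2 sham, so that order is within their spread. Stoml3 had 53 counts in all over the 20 mouse libraries, with at most 7 in any of them (BALB/c sham 57) and 0 in B10.D2 SNI 90, and it passed no filter on low counts in mouse.

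**Figure D1:**
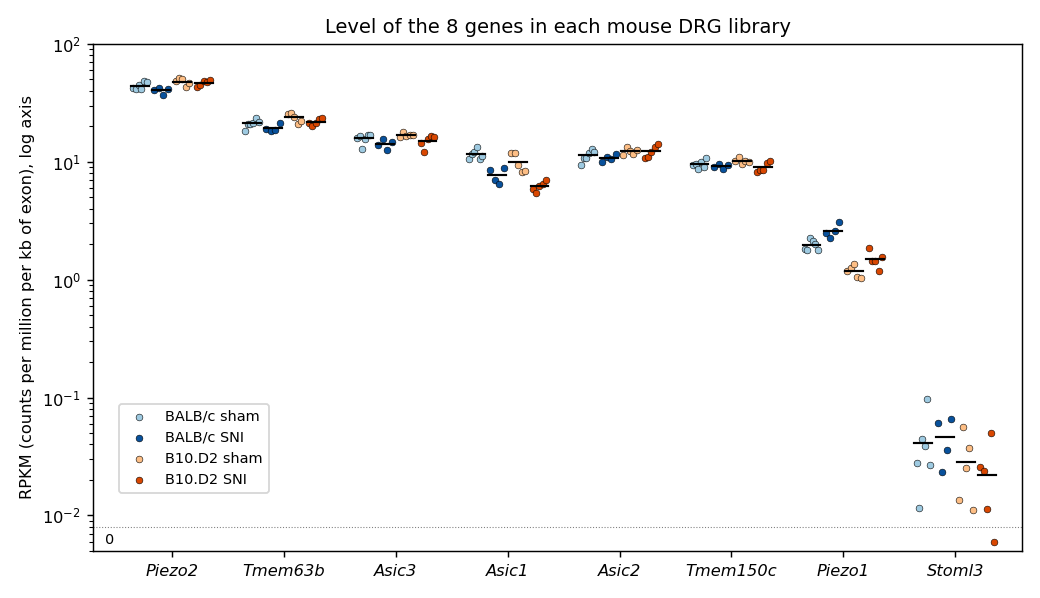
Level of the 8 genes in each mouse library, in RPKM on a log axis, ordered by their mean in BALB/c sham, with colours for the 4 groups. Piezo2 lies above all other genes, at 44.2 RPKM on average in BALB/c sham, Piezo1 lies at 1.96 RPKM, and Stoml3 lies near 0.041 RPKM.

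SNI lowered Asic1, the proton-gated channel subunit, in both strains, and raised Piezo1 in BALB/c. The other 5 tested members, including the touch channel Piezo2, did not pass the test in either strain. In BALB/c, 1 member rose and 1 fell of 7 tested, where 9.69% of 24685 features were called. In B10.D2, 1 of the 7 fell and none rose, where 4.58% of features were called. DESeq2 also called 2 members for BALB/c and 1 for B10.D2. At an unadjusted edgeR p under 0.05 the counts were 3 and 3 of 7, where 5739 and 4149 of 24685 features had such a p. The median log2 fold change of the 7 was -0.13 in BALB/c and -0.11 in B10.D2, against 0.0033 and 0.0076 over all features. Adjusted p-values are from edgeR's quasi-likelihood test with Benjamini-Hochberg adjustment over all features tested, and errors of log2 fold changes are standard errors.

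**Figure D2:**
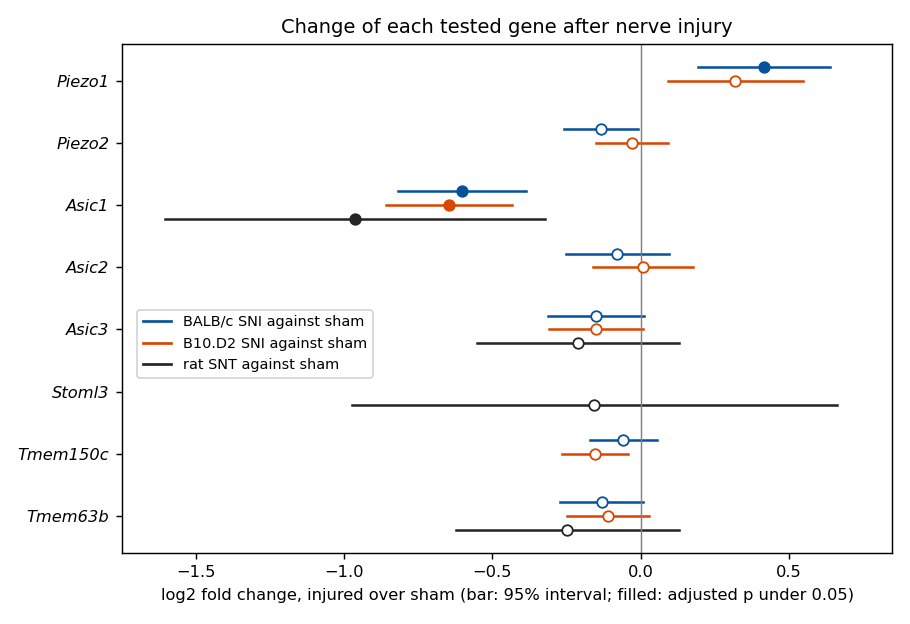
Log2 fold change of each tested member, injured over sham, with 95% intervals as bars, for BALB/c SNI, B10.D2 SNI and rat SNT. Filled points had an adjusted p under 0.05: Asic1 in all 3 comparisons, at -0.60, -0.65 and -0.96, and Piezo1 in BALB/c, at 0.42.

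Asic1 (ENSMUSG00000023017, mm10 chr15:99670368-99701130, plus strand) gave the clearest difference. The 6 BALB/c sham libraries lay at 60.5 CPM (lowest), 65.4 (median) and 77.2 (highest), and BALB/c SNI libraries 49, 64, 65 and 70 at 48.9, 40.5, 37.0 and 50.4 CPM. The groups did not overlap, since the highest SNI library stood below the lowest sham library. Asic1 fell by 0.60 on the log2 scale (SE 0.10, 95% interval -0.82 to -0.39, adjusted p = 0.000571), a 1.52-fold lower level. In B10.D2, sham libraries 58, 60, 67, 77 and 88 lay at 67.9, 68.1, 53.5, 47.4 and 47.6 CPM, and SNI libraries 69, 76, 78, 89 and 90 at 33.6, 30.9, 35.6, 36.9 and 40.5 CPM. Again no SNI library reached the sham range, although the sham libraries themselves split into a higher pair (58 and 60) and 3 lower ones. Asic1 fell by 0.65 on the log2 scale in B10.D2 (SE 0.10, 95% interval -0.86 to -0.43, adjusted p = 0.000506), a 1.57-fold lower level. Both strains kept this call in all 25 alternative fits, with log2 fold changes from -0.65 to -0.54 in BALB/c and from -0.71 to -0.59 in B10.D2. In whole ganglia, fewer cells of a type and less RNA per cell cannot be told apart, and 10 pan-neuronal markers had a median log2 fold change of -0.10 in each strain (1 higher and 1 lower in BALB/c, 1 lower in B10.D2).

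Asic2 and Asic3, which encode the partner subunits, did not pass the test. Asic2 (ENSMUSG00000020704, chr11:80880169-81968457, minus strand) had a log2 fold change of -0.08 in BALB/c (95% interval -0.25 to 0.09, adjusted p = 0.633) and of 0.01 in B10.D2 (-0.16 to 0.18, adjusted p = 0.972). Its BALB/c SNI libraries, at 42.4 to 49.8 CPM, lay inside the sham range of 40.2 to 55.2 CPM. Asic3 (ENSMUSG00000038276, chr5:24413392-24417835, plus strand), the subunit known from muscle and skin afferents, had a log2 fold change of -0.15 in both strains (adjusted p = 0.248 for BALB/c, 0.332 for B10.D2). Its BALB/c sham libraries spanned 31.2 to 41.3 CPM and its SNI libraries 30.6 to 38.2 CPM, an overlap of most of the range. In B10.D2 the Asic3 sham libraries lay close together at 39.3 to 43.1 CPM, while the SNI libraries spread from 29.6 to 40.5 CPM. As a share of the summed RPKM of the 3 ASIC genes, Asic1 went from 29.9% in sham to 23.5% in SNI libraries of BALB/c and from 25.3% to 18.5% in B10.D2.

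Ratios within a library do not depend on how libraries are scaled, and they were compared by two-sided exact permutation tests of the log2 CPM ratio, with adjustment over 25 ratios, of which 8 passed. The ratio of Asic3 to Asic1 was higher after SNI by 0.44 on the log2 scale in BALB/c (exact permutation adjusted p = 0.0446) and by 0.49 in B10.D2 (0.0397), with no overlap between groups in either strain. The ratio of Asic2 to Asic1 was higher by 0.52 in BALB/c (exact permutation adjusted p = 0.0446, groups overlapping) and by 0.66 in B10.D2 (0.0397, no overlap). Against the mean of 10 pan-neuronal markers, Asic1 was lower by 0.50 in BALB/c and by 0.58 in B10.D2 (exact permutation adjusted p = 0.0397 in each), again with no overlap. The ASIC genes thus moved unequally inside the same libraries, Asic1 falling relative to its partners. With groups this small, leaving out BALB/c SNI 65 or 70 or B10.D2 SNI 69 or 76 left 0 of the 25 ratios past the threshold. Over 30 alternative settings the BALB/c call was lost in 11 for Asic3 to Asic1, in 10 for Asic2 to Asic1 and in 5 for Asic1 to the pan-neuronal markers. In B10.D2 these calls were lost in 7, 4 and 4 settings. The settings include leaving out libraries of the other strain or of rat, which leave a ratio unchanged and act only through the adjustment over 25 ratios. Without B10.D2 SNI 69, for instance, the BALB/c Asic3 to Asic1 difference stayed at 0.44 with an exact permutation adjusted p of 0.0567. All 6 Asic1 ratios kept their direction throughout.

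**Figure D3:**
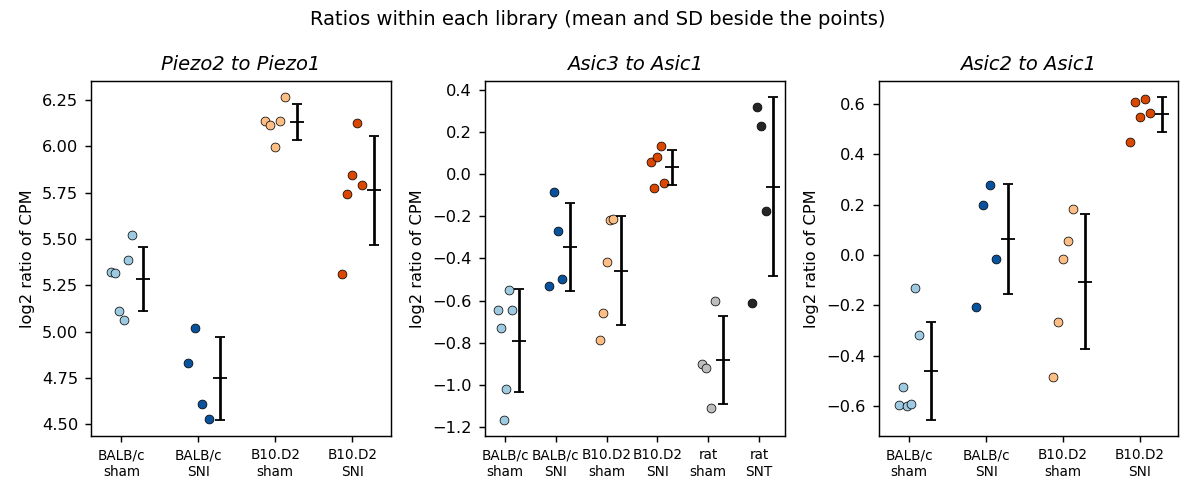
Log2 CPM ratios within each library (Piezo2 to Piezo1, Asic3 to Asic1, Asic2 to Asic1) for sham and injured groups of both mouse strains and, for Asic3 to Asic1, of rat, with 1 point a library and the mean and SD beside the points. The Asic3 to Asic1 ratio lies higher in SNI than in sham libraries without overlap in both strains, by 0.44 and 0.49, and the Piezo2 to Piezo1 ratio lies lower without overlap in BALB/c, by 0.54.

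Piezo1 (ENSMUSG00000014444, chr8:122481698-122551329, minus strand) was higher after SNI in BALB/c. The BALB/c sham libraries lay at 17.6 CPM (lowest), 18.9 (median) and 22.4 (highest), and SNI libraries 49, 64, 65 and 70 at 24.6, 22.4, 25.9 and 30.7 CPM. The groups touched at 1 point, where SNI 64 and sham 55 had nearly equal values, and every other SNI library stood above every sham library. Piezo1 rose by 0.42 on the log2 scale (SE 0.11, 95% interval 0.19 to 0.64, adjusted p = 0.0154), a 1.33-fold higher level. Without BALB/c SNI 70, the highest library, the log2 fold change was 0.30 and the adjusted p 0.0883. In B10.D2 the sham libraries 58, 60, 67, 77 and 88 lay at 11.7, 12.6, 13.6, 10.6 and 10.3 CPM and the SNI libraries 69, 76, 78, 89 and 90 at 18.6, 14.3, 14.4, 11.7 and 15.5 CPM. All but SNI 89 stood above the sham range, and Piezo1 had a log2 fold change of 0.32 (95% interval 0.09 to 0.55) that missed the threshold, with an adjusted p of 0.112. Without SNI 89 the log2 fold change was 0.39 and the adjusted p 0.0451. The strain by injury interaction of Piezo1 was -0.10 (95% interval -0.42 to 0.23, adjusted p = 1), so its change was not shown to differ between strains.

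Markers of other cell types moved beside Piezo1 in BALB/c. The summed level of 7 macrophage markers ranged from 66.6 to 164 CPM in sham and from 119 to 176 in SNI libraries, with 3 of the 7 called higher (Csf1r, Cx3cr1 and Cd68). The sums of 5 fibroblast and perineurial markers ranged from 952 to 1363 and from 1118 to 1741 CPM with 1 called higher, and those of 6 endothelial markers from 166 to 200 and from 177 to 208 CPM with 1 called higher. In B10.D2 the macrophage sums were 132 to 148 CPM in sham and 128 to 201 in SNI libraries, with 0 of the 7 called by edgeR. Of these 7, 5 had an unadjusted edgeR p under 0.05, where 4149 of 24685 features did. The fibroblast and perineurial sums of B10.D2 were 1178 to 1234 CPM in sham and 1119 to 1720 in SNI libraries, with 1 of 5 called higher. Cdh19, 1 of 6 satellite glia markers, was called higher in both strains, and 5 of the 6 had a positive log2 fold change in BALB/c and 3 in B10.D2. Of 7 Schwann cell and myelin markers 1 was called higher in BALB/c, where 5 had a negative log2 fold change, and 0 were called in B10.D2. Over all features, 4.82% were called higher in BALB/c and 2.10% in B10.D2. All markers of these lists were detected in mouse, and their part in the Piezo1 difference was not tested. Against the pan-neuronal markers Piezo1 was higher by 0.50 on the log2 scale in BALB/c (exact permutation adjusted p = 0.0446) and by 0.42 in B10.D2 (0.0722), with overlapping groups in each. Leaving out the libraries with muscle RNA, BALB/c sham 50 or BALB/c SNI 49, left both Asic1 and Piezo1 called by edgeR in BALB/c. The BALB/c ratio of Piezo1 to the pan-neuronal markers did not pass without either library (exact permutation adjusted p = 0.0661 each). It was lost in 10 of 30 alternative settings.

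**Figure D4:**
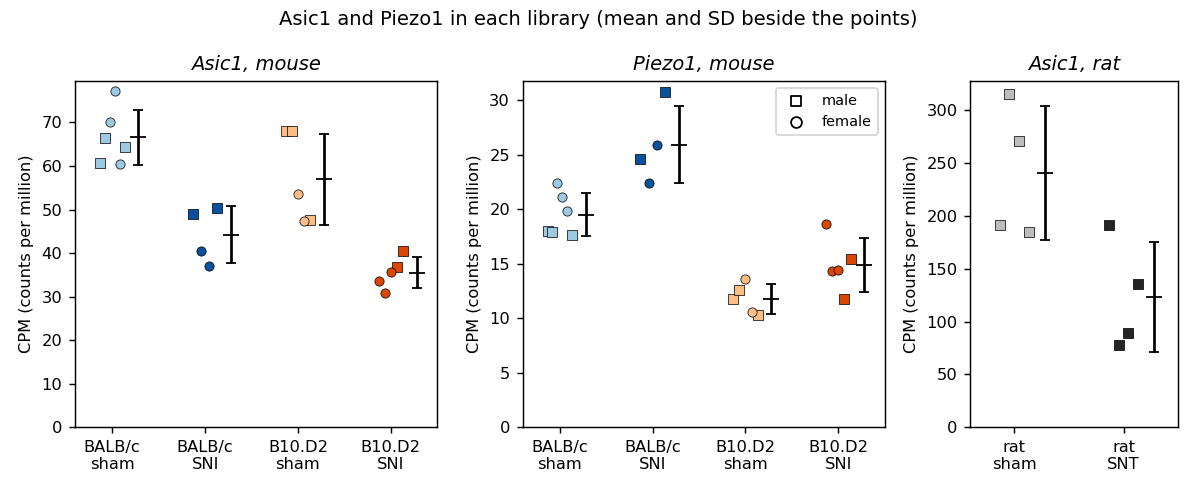
CPM of Asic1 and Piezo1 in each mouse library and of Asic1 in each rat library, by group, with the mean and SD beside the points, squares for males and circles for females. Asic1 is lower after SNI in both strains without overlap, and Piezo1 is lower in every B10.D2 sham library (10.3 to 13.6 CPM) than in every BALB/c sham library (17.6 to 22.4 CPM).

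Piezo2 (ENSMUSG00000041482, chr18:63010213-63387183, minus strand), the touch channel, did not pass the test after injury. BALB/c sham libraries lay at 706 CPM (lowest), 747 (median) and 830 (highest), and SNI libraries 49, 64, 65 and 70 at 700, 728, 631 and 709 CPM. SNI 65 was the lowest of all 20 mouse libraries, and the groups overlapped. The log2 fold change was -0.13 (95% interval -0.26 to -0.01, adjusted p = 0.179). In B10.D2 the sham libraries spanned 745 to 875 CPM and the SNI libraries 738 to 857 CPM, nearly the same range, with a log2 fold change of -0.03 (adjusted p = 0.877). Within each library, the ratio of Piezo2 to Piezo1 was lower after SNI in BALB/c by 0.54 on the log2 scale (exact permutation adjusted p = 0.0397). As a linear CPM ratio it lay at 33.4 to 45.9 in sham libraries and at 28.5, 32.5, 24.4 and 23.1 in SNI libraries. That call was lost in 5 of 30 alternative settings. In B10.D2 the ratio differed by -0.37 (exact permutation adjusted p = 0.0661) and the groups overlapped. Against the mean of 10 pan-neuronal markers, Piezo2 differed by -0.03 in BALB/c (exact permutation adjusted p = 0.699) and by 0.05 in B10.D2 (0.546).

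Tmem150c and Tmem63b, the other candidate mechanosensors, did not pass the test after SNI. Tmem150c (ENSMUSG00000050640, chr5:100077872-100159808, minus strand) had a log2 fold change of -0.06 in BALB/c (95% interval -0.17 to 0.06, adjusted p = 0.583) and of -0.15 in B10.D2 (-0.27 to -0.04, adjusted p = 0.121). In B10.D2 its sham libraries lay at 53.6 to 61.1 CPM and its SNI libraries at 45.5 to 56.4 CPM, so the ranges overlapped in their middle. Tmem63b (ENSMUSG00000036026, chr17:45660171-45686905, minus strand) had a log2 fold change of -0.13 in BALB/c (-0.27 to 0.01, adjusted p = 0.253) and of -0.11 in B10.D2 (-0.25 to 0.03, adjusted p = 0.437). Its BALB/c SNI libraries, at 94.0 to 109 CPM, lay within the sham range of 93.5 to 120 CPM.

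Between strains, Piezo1 was the member that differed in sham ganglia. It was lower in B10.D2 than in BALB/c by 0.72 on the log2 scale (means 11.8 ± 1.36 and 19.5 ± 1.98 CPM, SD, n = 5 and 6; log2 fold change -0.72, SE 0.10, 95% interval -0.94 to -0.50, adjusted p = 2.19e-05), a 1.64-fold lower level with no overlap. The call was kept in all 24 alternative fits. It was 1 of 7 tested members, where 21.6% of features differed between the strains, so the count of members is no higher than the background. The next members were Asic1, with a log2 difference of -0.25 (95% interval -0.45 to -0.05, adjusted p = 0.0687), and Tmem63b, with 0.16 (0.03 to 0.29, adjusted p = 0.0758), and DESeq2 also called 1 member. The 6 endothelial markers had 2 called lower in B10.D2 (summed level 148 to 173 CPM, against 166 to 200 in BALB/c), and the 7 macrophage markers 3 called higher. Of 5 fibroblast and perineurial markers 2 were called higher and 1 lower, of 3 muscle markers 3 were called lower, and of 6 satellite glia markers 1 was called lower. Their part in the strain difference of Piezo1 was not tested.

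None of the 7 tested members passed the test of the strain by injury interaction, where 0.0243% of features did, and DESeq2 also gave 0. At an unadjusted edgeR p under 0.05 the count was 0 too, where 1073 of 24685 features had such a p. For Asic1 the interaction was -0.04 on the log2 scale (95% interval -0.35 to 0.26), and for Piezo2 0.11 (-0.07 to 0.28). The 2 injury comparisons have separate sham groups but share 1 fit and 1 estimate of spread. Between males and females, 0 of 7 members were called by edgeR or DESeq2, where 0.243% of features were called by edgeR. At an unadjusted edgeR p under 0.05 there were 2 of 7, where 2899 of 24685 features had such a p. These were Tmem150c, with a log2 difference, male over female, of 0.11 (95% interval 0.03 to 0.19, adjusted p = 0.251), and Asic1, with 0.16 (0.01 to 0.31, adjusted p = 0.403).

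In rat, 4 of the 8 members could be tested, and Asic1 was the one that fell after SNT. It was 1 of 4, where 27.4% of 13690 features were called, so the share is near the background. Asic1 (ENSRNOG00000059765) lay at 191, 315, 270 and 185 CPM in sham libraries 1 to 4 and at 192, 77.5, 89.1 and 135 CPM in SNT libraries 1 to 4. The groups overlapped through SNT 1, which stood at the level of sham 1 and 4, the other SNT libraries being below every sham library. Asic1 fell by 0.96 on the log2 scale (SE 0.29, 95% interval -1.60 to -0.32, adjusted p = 0.0343), a 1.95-fold lower level, and DESeq2 also called it. The call was lost when any of sham 1, 2 or 3 or SNT 2, 3 or 4 was left out, with adjusted p-values from 0.0533 to 0.0907. A setting added after seeing the data left out sham 4 and SNT 1, the libraries that lay between the groups, a choice that by itself widens the gap. Asic1 then fell by 1.35 on the log2 scale (adjusted p = 0.00142), which adds no support to the call. The summed level of the injury markers was 670 CPM in sham 4, against 265 to 294 in the other sham libraries, and 896 in SNT 1, against 984 to 1312 in the other SNT libraries. Within libraries Asic1 was lower against 6 pan-neuronal markers by 0.71 on the log2 scale with no overlap, at the smallest exact permutation p that 4 against 4 allows (0.0286, adjusted 0.0714). The reference itself moved, since 2 of these 6 markers were called lower after SNT and 0 higher, with a median log2 fold change of -0.40. With the median of these markers in place of their mean, the difference was smaller, at -0.35 (exact permutation adjusted p = 0.0476). The adjustment runs over all 25 ratios, more of which passed in that setting, so the lower adjusted p is no stronger result. Markers of other cells moved in these rat libraries too. Nociceptor sums ranged from 2640 to 4501 CPM in sham and from 546 to 2634 CPM in SNT libraries (6 of 11 tested markers lower), with 1 of the 12 listed at 0. Schwann cell and myelin sums ranged from 2152 to 2796 and from 2561 to 4248 CPM (2 of 4 tested higher), and fibroblast and perineurial sums from 882 to 2006 and from 1857 to 2708 CPM (1 of 3 tested higher). Macrophage sums ranged from 48.6 to 122 and from 123 to 151 CPM (1 of 3 tested higher). Of the satellite glia markers 1 of 2 tested was called lower, and of the endothelial markers 1 of 2 tested was called higher. Over all rat features, 12.3% were called higher and 15.1% lower. Several of these lists' markers were at 0 in rat, and their part in the Asic1 difference was not tested.

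The other rat members did not pass the test. Asic3 lay at 102, 166, 125 and 122 CPM in sham and at 125, 96.7, 104 and 119 CPM in SNT libraries, with overlapping groups and a log2 fold change of -0.21 (95% interval -0.55 to 0.13, adjusted p = 0.318). Tmem63b lay at 207, 330, 221 and 216 CPM in sham and at 230, 198, 169 and 223 CPM in SNT libraries. Its groups also overlapped, and its log2 fold change was -0.25 (-0.62 to 0.13, adjusted p = 0.291). Stoml3, too low to test in mouse, had 13 to 29 counts in sham and 14 to 33 in SNT libraries of rat, with a log2 fold change of -0.16 (-0.97 to 0.66, adjusted p = 0.773). The median log2 fold change of the 4 was -0.23, against 0.0027 over all rat features. Piezo1, Piezo2, Asic2 and Tmem150c were listed at 0 in all 8 rat libraries, as were 6234 of the 15775 rat genes that share a symbol with a mouse protein-coding gene (39.5%), Vim and Atf3 among them. The rat values at 0 therefore say nothing of the level of these channels.

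Of a list of 30 other genes tied to mechanical sensing, 28 were tested in mouse. In BALB/c 3 rose and none fell, where 4.82% of all features were called higher, and in B10.D2 2 rose and none fell, where 2.10% were. Their median log2 fold changes were 0.02 and 0.06. Pcdh15, a cadherin of the hair cell tip link, rose by 0.88 in BALB/c (adjusted p = 0.00214) and by 0.70 in B10.D2 (adjusted p = 0.0203). Vim, the intermediate filament protein vimentin, rose by 0.49 (adjusted p = 8.88e-07) and by 0.34 (adjusted p = 0.000185), and Itga1, a collagen-binding integrin subunit, rose by 0.30 in BALB/c (adjusted p = 0.00721). In rat 16 of the 30 were tested, and 2 rose and 2 fell, with a median of -0.07, where 12.3% of all rat features were called higher and 15.1% lower. The rising genes were Stom, the stomatin relative of Stoml3, by 0.77 (adjusted p = 0.0208), and Itga1, by 0.60 (adjusted p = 0.0254). The falling genes were the stomatin relative Stoml2 and the channel Trpc1, each with a log2 fold change of -0.49 (adjusted p = 0.0230 and 0.0440). Of the paralogues, Asic4 and Asic5 were too low to test in both species, with group means of at most 0.294 CPM. Stom, Stoml1, Stoml2, Tmem63a and Tmem63c were not called after SNI, with log2 fold changes in BALB/c of 0.13, -0.12, -0.12, 0.13 and 0.03, and in B10.D2 of 0.15, -0.09, -0.11, 0.06 and 0.06. In rat Stoml1 had a log2 fold change of -0.16 (adjusted p = 0.490) and Tmem63c of -0.22 (adjusted p = 0.437).

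Of 24 genes that mark touch and proprioceptive neurons and were tested in mouse, 9 fell and none rose in BALB/c, where 4.87% of all features were called lower. In B10.D2 9 fell and 1 rose, where 2.48% of features were called lower, with median log2 fold changes of -0.21 and -0.20. Calb2, the calcium buffer calretinin, fell by 3.29 in BALB/c (9.14 to 0.97 CPM on average, adjusted p = 8.44e-07) and by 2.83 in B10.D2 (adjusted p = 7.73e-06). Pvalb, the proprioceptor marker parvalbumin, fell by 0.95 (adjusted p = 0.0323) and 1.26 (adjusted p = 0.00852), and Mafa, a transcription factor of rapidly adapting touch neurons, fell by 0.71 (adjusted p = 0.00646) and 0.88 (adjusted p = 0.00157). The gene that rose in B10.D2 was Slc17a8, a vesicular glutamate transporter, by 0.33 (adjusted p = 0.0147). In rat 8 of 17 fell and none rose, where 15.1% of all rat features were called lower and 12.3% higher, with a median of -0.54. The largest falls were Pvalb at -3.11 (adjusted p = 0.0223), Slc17a8 at -3.03 (adjusted p = 0.0130) and Scn1a, a sodium channel of large neurons, at -2.02 (adjusted p = 0.0114). The nociceptor markers fell in the same rat libraries, 6 of 11 tested with none higher and a median of -1.49, while in mouse 2 of 12 fell in BALB/c and 1 of 12 in B10.D2. Piezo2, which touch neurons use, had log2 fold changes of -0.13 and -0.03 in the same mouse libraries.

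Features that overlap the members were read for the same comparisons. Ctu2, a tRNA-modifying enzyme, shares exonic bases with Piezo1 on the opposite strand and lay at 16.0, 15.9, 15.0 and 14.3 CPM on average in the sham and SNI groups of BALB/c and then of B10.D2, with a strain difference in sham of -0.09 (adjusted p = 0.402) where Piezo1 differed by -0.72. Mrpl14, a mitochondrial ribosomal protein, overlaps Tmem63b exons on the opposite strand and was lower in B10.D2 than in BALB/c sham ganglia by 1.17 on the log2 scale (7.12 and 16.0 CPM, adjusted p = 8.72e-11). An assembled long noncoding RNA of the study, LncRNA3388, lies within Piezo2 on the same strand with 7 exons and 53335 exonic bases, none of them in annotated Piezo2 exons. It averaged 76.6 CPM in BALB/c sham and 108 in B10.D2 sham ganglia (log2 difference 0.52, adjusted p = 0.000257), where Piezo2 itself differed by 0.11 (adjusted p = 0.182). The mouse libraries were ribosome-depleted, and whether counts of LncRNA3388 include unspliced Piezo2 RNA was not tested. The libraries mark strand, but the strand setting of the counting is not given in the sources used here, so reads of opposite-strand neighbours may not be fully separated.

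Across the 20 mouse libraries, the genes most like each member in how libraries departed from their group means were read among 14061 genes of at least 1 CPM. For Asic1 they were Sema7a (Pearson r = 0.94) and Syt3 (0.94), and for Piezo1 Pex6 (0.89) and Grrp1 (0.88). Piezo2 was nearest to Cacna1b (0.90) and Crmp1 (0.89), and Tmem63b to Apba1 (0.97) and Arhgef11 (0.96). Asic2 was nearest to Hk1 and Psmd3, Asic3 to Zfp804a and Hif1an, and Tmem150c to Nefm and Pitpna, with r from 0.83 to 0.91. These correlations are descriptions over libraries that share depth and cell composition, picked as the highest of many, and they carry no test.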

How the data were processed

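Counts per gene were made by the authors and deposited as 1 table each for mouse and rat: reads were aligned with STAR to mm10 or rn6 and counted with HTSeq over Ensembl genes and assembled long noncoding RNAs. Mouse libraries were ribosome-depleted and rat libraries polyadenylated RNA. The deposited result tables also hold the authors' DESeq2 log2 fold changes and p-values, of which only the gene symbol column was used here. No column lacked a sample. Counts were tested with edgeR 4.0.16 (quasi-likelihood test, TMM factors, filterByExpr), as sex + strain × surgery over 20 mouse libraries and as surgery over 8 rat libraries, with a call at an adjusted p under 0.05 among 24685 and 13690 features. DESeq2 1.42.0, other scaling, no filter, no sex term, each strain alone, a rat replicate block and leaving out each library were alternatives. Ratios used exact permutation. RPKM used the union of GENCODE M21 exons (49326 of 49585 Ensembl IDs matched). Named genes were all members, the 3 largest called rises and falls of 2 lists per injury comparison, paralogues, injury markers and, per member, the 2 most correlated genes. The members and lists were chosen with earlier results of these data known. The scripts were tested on simulated data. No pairing of rat libraries by the numbers in their titles was seen, although so few pairs cannot exclude it. Mouse p-values measure spread between mice, rat p-values spread between pools.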

Additional observations from a re-analysis of the deposited data

Results flagged for a closer look

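Of 40 groups of 4 to 6 libraries, 3 had a library standing apart from the rest of its group by Dixon's test, near the share that chance gives at its 95% level. Asic3 in BALB/c sham library 55 stood at 31.2 CPM, below the next library at 38.1 and the highest at 41.3. Stoml3 in rat SNT library 1 stood at 2.09 CPM, above the next at 0.918. Tmem63b in rat sham library 2 stood at 330.1 CPM, above the next at 220.7.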

How the results depend on the processing

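Asic1 in both mouse strains and Piezo1 between sham strains kept their calls under all alternatives run. The count of members called after SNI ranged from 1 to 2 when single libraries were left out in BALB/c and from 1 to 2 in B10.D2, the changed call being Piezo1. Between sham strains it was 2 with no filter on low counts, where Asic1 had an adjusted p of 0.0303, and 1 to 2 with single libraries left out. In rat it was 0 with the replicate block (Asic1 -1.01, adjusted p = 0.0883) and 0 to 1 with single libraries left out. No pairing by the numbers in the rat titles was seen: deviations of same-numbered libraries correlated at -0.24 to 0.05. With so few pairs this cannot exclude a shared effect. Of the 25 ratios 15 were called with the median of the pan-neuronal markers in place of their mean, and 0 to 9 with single libraries left out. The ratios called with the median alone were, to the pan-neuronal markers, B10.D2 Piezo1 (0.58), Piezo2 (0.21), Asic2 (0.25) and Tmem150c (0.072), BALB/c Tmem150c (0.19) and rat Asic1 (-0.35), and B10.D2 Piezo2 to Piezo1, with adjusted p-values from 0.0283 to 0.0476. The B10.D2 Tmem150c ratio was -0.087 with the mean, so it was called with the opposite sign. Values close to 0 changed sign. The Asic3 interaction was -0.014 with no sex term. With the marker median, the BALB/c ratios to the pan-neuronal markers were 0.12 for Piezo2, 0.095 for Asic3 and 0.12 for Tmem63b, and those of B10.D2 were 0.072 for Asic3, 0.072 for Tmem150c and 0.13 for Tmem63b. With single libraries left out, the B10.D2 log2 fold change ranged from -0.067 to 0.0011 for Piezo2 and from -0.047 to 0.049 for Asic2, and the interaction from -0.19 to 0.012 for Piezo1, -0.11 to 0.0093 for Asic1, -0.038 to 0.086 for Asic3 and -0.022 to 0.076 for Tmem63b. In the same way the BALB/c ratio to the pan-neuronal markers ranged from -0.058 to 0.0047 for Piezo2, -0.0098 to 0.052 for Asic2 and -0.055 to 0.0037 for Tmem63b, that of B10.D2 from -0.081 to 0.0051 for Tmem63b, and that of rat from -0.099 to 0.18 for Stoml3, whose rat log2 fold change ranged from -0.64 (2 libraries left out) to 0.068. Without rat sham 4 and SNT 1, a setting added after seeing the data, the rat ratio of Stoml3 to these markers was -0.097, and 6105 rat features were called, against 3753. With single libraries left out, called features numbered 665 to 1214 for B10.D2 SNI (1130 with all), 1483 to 5041 for rat, 3 to 6 for the interaction (DESeq2 10, 6 with all) and 35 to 159 for sex (DESeq2 245, no filter 222, 60 with all). The causes were not tested. Stoml3 in mouse and 4 members in rat were limited by counts.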
